A study of Danio rerio with 12 samples.

Results

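Rapamycin was compared with vehicle in WT zebrafish larvae at 48 h post-fertilization (hpf), using 6 of the 12 RNA-seq libraries of the series. There were 3 libraries from WT larvae given 100 nM rapamycin from 24 hpf and 3 from WT larvae given vehicle (0.1% DMSO). The libraries were chosen by their labels and not by any measured value, although the comparison itself was chosen with earlier results of these data known. Both groups pooled wild-type embryos with apc mcr/+ heterozygous siblings, which could not be separated from them by morphology at 24 hpf, so the WT groups are not of a single genotype. Each library was made from 20 whole embryos, and the paper names 3 independent clutches. Whether a replicate number stands for the same clutch in every group is not given in the sample titles or the paper. The remaining 6 libraries were from apc mcr/mcr larvae with and without the same rapamycin exposure, and their values are set beside those of WT larvae. The question put to the data was which mRNAs differed in abundance with exposure to rapamycin, an inhibitor of mTORC1, in larvae that were not homozygous for the apc mutation. The activity of mTORC1 was not measured in these libraries.

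Rapamycin binds the small immunophilin FKBP12, and the complex of drug and protein binds mTOR and inhibits mTOR complex 1 (mTORC1). In growing cells mTORC1 promotes the translation of mRNAs for ribosomal proteins and translation factors, the ATF4-driven expression of amino acid transporters and tRNA synthetases, and the SREBP-driven expression of sterol and fatty acid enzymes. It holds back autophagy and the transcription factor TFEB, which drives genes of the lysosome. Most of these actions were defined in mammalian cells and yeast.

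Counts per library were 79553529, 51692772 and 70265703 in rapamycin replicates 1, 2 and 3, against 77680617, 74395349 and 75217249 in vehicle replicates 1, 2 and 3. All values below are normalized counts, scaled by edgeR's TMM factors to a library of 75217249 counts, and all log2 values are rapamycin minus vehicle. Rapamycin replicates 2 and 3 stood apart from the other WT libraries, each in its own way. Replicate 3 lay at 95.4 on the first principal component of the 6 WT libraries, which held 50.1% of the variance, against -58.6 for replicate 2 and between -13.5 and -3.3 for the other 4. Of 17362 genes averaging 100 counts or more per WT library, 1390 (8.01%) were over 2-fold lower in replicate 3 than in every other WT library, and 21 were over 2-fold higher. Among the 10 farthest below was PXDN, which encodes the extracellular matrix enzyme peroxidasin and had 116 normalized counts in replicate 3 against 709 to 931 in the other 5 WT libraries. Among the 10 farthest above was mt2, a metallothionein, with 5712 against 1048 to 2720. In replicate 2, 136 genes were over 2-fold above every other WT library and 2 were below. A single gene of replicate 2, zgc:158463 (ENSDARG00000089382), took 6673804 counts or 12.9% of the library, where no other WT library had more than 263047. Many of the next highest in replicate 2 were unnamed genes, and hist1h2a7, a histone H2A gene, had 1744 normalized counts there against 0 to 25.2 in the other 5. Rapamycin replicate 1 lay near the vehicle libraries on the first and second components, but at -39.9 on the third (12.4% of the variance), against -2.7, 32.5 and 21.4 for vehicle replicates 1, 2 and 3. The SD over genes of the log2 difference from the vehicle libraries was 0.448 to 0.522 for replicate 1, 0.621 to 0.671 for replicate 2 and 0.764 to 0.807 for replicate 3, against 0.43 to 0.461 between vehicle libraries. Values of named genes are therefore given by replicate, and calls and the medians of the main lists also without replicate pair 3.

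**Figure D1:**
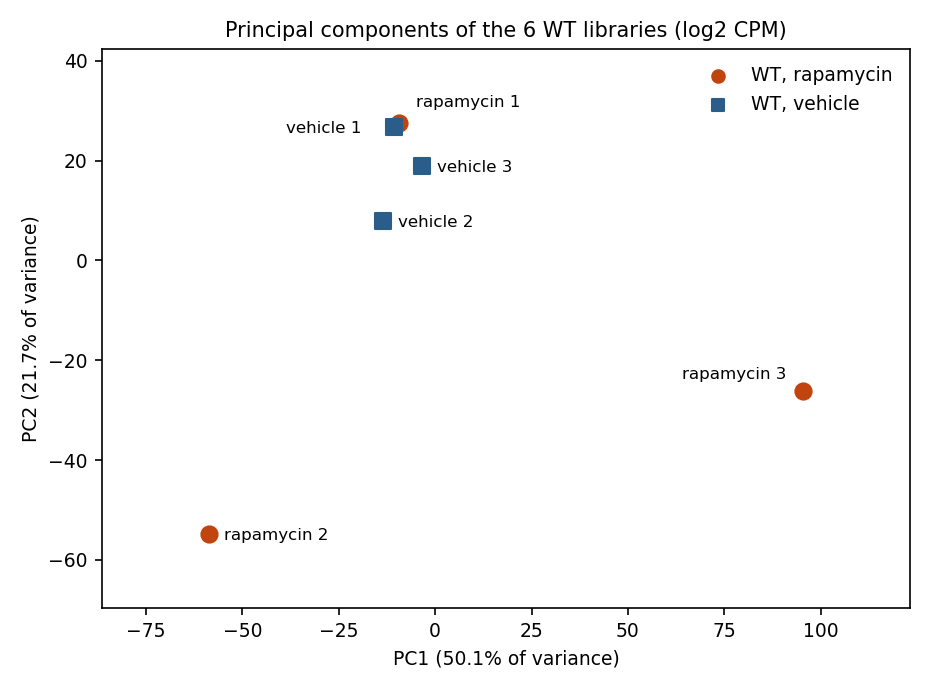
Principal components of the 6 WT libraries, computed on log2 CPM, with PC1 (50.1% of the variance) on the horizontal and PC2 (21.7%) on the vertical axis; circles are rapamycin and squares vehicle libraries. On these 2 components the 3 vehicle libraries and rapamycin replicate 1 lie together, and rapamycin replicates 2 and 3 lie apart from them and from each other.

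With all 12 libraries in one model and replicate number as a block, no gene of 22841 tested differed between rapamycin and vehicle WT larvae at an adjusted p under 0.05 (0.0% called). The test was the quasi-likelihood test of edgeR, adjusted by the Benjamini-Hochberg method over all genes, and the smallest adjusted p was 0.434. At an unadjusted p under 0.05 there were 2404 genes (10.5%), of which 1162 (5.09%) were higher and 1242 (5.44%) lower. That number depended on the model. It was 1394 with no replicate block. In the 6 WT libraries alone it was 614 of 22297 genes with the block and 669 without. The main fit and its SEs use a spread estimated from all 12 libraries, mutants included. DESeq2 on the counts of all 12 libraries called 100 genes, 56 higher and 44 lower. Limma with voom sample quality weights called 1538 (6.73%), 669 higher (2.93%) and 869 lower (3.8%). In that last fit the weight of a library falls with its departure from the others, and it was 2.84, 0.581 and 0.0944 for rapamycin replicates 1, 2 and 3, against 1.47, 0.951 and 0.692 for vehicle replicates 1, 2 and 3. Without replicate pair 3, edgeR called 13 of 23010 genes (0.0565%), 11 higher (0.0478%) and 2 lower (0.00869%), DESeq2 called 360 and limma voom called 11. The number of calls therefore depended on the tool and on replicate 3. Beyond the tests, 1244 genes (5.45%) were higher in all 3 rapamycin libraries than in all 3 vehicle libraries, and 1198 (5.24%) were lower in all 3.

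The 20 genes with the smallest p with all libraries, 10 in each direction, are described here although none was called by edgeR. They had log2 differences of 0.49 to 1.21 in size, and the groups did not overlap in 19 of the 20. Over all genes, 5.45% were higher and 5.24% lower without overlap. Since the 20 were picked by small p from these same libraries, such separation largely follows from the choice and is no support. All 20 passed DESeq2 and limma voom at an adjusted p under 0.05, which is a description and no independent support, since these tools used the same counts. None passed edgeR without pair 3, where their adjusted p ran over 0.102 to 0.186. Genes for a pair of proteins of the endosome and lysosome were among the 10 higher genes. CTSA (ENSDARG00000098114), the serine carboxypeptidase cathepsin A of the lysosome, had 8978, 10893 and 10288.5 normalized counts in rapamycin larvae, against 5897, 5879 and 5894 in vehicle larvae. Every rapamycin library was well above the vehicle libraries, which were nearly equal to one another. The log2 difference was 0.77 (SE 0.14), and it reached an edgeR adjusted p of 0.0494 when rapamycin replicate 3 alone was left out. MCOLN2 (ENSDARG00000098918), a cation channel of the TRPML family found in endosomes and lysosomes, had 704, 1122 and 1075 in rapamycin larvae, against 424, 376 and 429 in vehicle larvae, a log2 difference of 1.21 (SE 0.23). Its groups did not overlap either, with replicate 1 the lowest of the rapamycin libraries. The muscle troponin I gene tnni4b.2 had 5925, 6251 and 8202 in rapamycin larvae, against 4269, 4584 and 4789 in vehicle larvae. The other 7 higher genes carry only clone-based names or identifiers.

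Among the 10 lower genes, ALDH1L2, the mitochondrial enzyme of folate one-carbon metabolism, had the smallest p of all genes tested. It had 1736, 1904 and 1612 normalized counts in rapamycin larvae, against 2424, 2424 and 2538 in vehicle larvae, and the log2 difference was -0.49 (SE 0.09). The highest rapamycin library was below the lowest vehicle library. USP8, a deubiquitinase of endosomal receptor sorting, had 1243, 1426 and 1109 in rapamycin larvae, against 1728, 2155 and 1811 in vehicle larvae. TRAPPC10, a subunit of a complex that tethers transport vesicles, had 592, 713 and 537 in rapamycin larvae, against 859, 1102 and 890.0 in vehicle larvae. Both genes were lower in every rapamycin library than in any vehicle library, with log2 differences of -0.59 (SE 0.12) for USP8 and -0.63 (SE 0.13) for TRAPPC10. The RNA-binding proteins YTHDF1, a reader of N6-methyladenosine, and ESRP2, an epithelial splicing regulator, differed by -0.50 (SE 0.10) and -0.49 (SE 0.10). The zinc importer gene slc39a3 had 138, 105.5 and 141 in rapamycin larvae, against 200.4, 229.7 and 226 in vehicle larvae.

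Of the 13 genes called without replicate pair 3, the 11 higher genes rose by 1.32 to 3.07 on the log2 scale, and PCK1 and zgc:153932 fell. Other gene IDs also carry the names b4galt5, JARID2, CEPT1, PTPRG, PRKCE and zgc:153932. Their values are not given here, so the changes below are those of single IDs. With no replicate block none of the 13 was called, and the fit of the 4 WT libraries alone called 11 genes, of which 6 were among the 13. Limma voom with quality weights called all 13 with all libraries, DESeq2 called 2 with all libraries and 13 without pair 3, and edgeR called 11 when only rapamycin replicate 3 was left out. The largest increase was in b4galt5 (ENSDARG00000037815), which encodes a Golgi galactosyltransferase of lactosylceramide synthesis. It had 465, 181 and 180.4 normalized counts in rapamycin larvae, against 43.8, 28.7 and 15.7 in vehicle larvae. Without pair 3 it was 8.38-fold higher (edgeR adjusted p = 0.00139), and all 3 rapamycin libraries were above all 3 vehicle libraries. DGCR2, which encodes a transmembrane adhesion receptor, had 1197, 584 and 199 in rapamycin larvae, against 161, 113 and 83.3 in vehicle larvae, and was 6.23-fold higher without pair 3 (edgeR adjusted p = 7.44e-04). DDX6, an RNA helicase of processing bodies, had 1987, 1014 and 624 in rapamycin larvae, against 352, 299 and 328 in vehicle larvae. In both DGCR2 and DDX6 replicate 1 was the highest and replicate 3 the lowest of the rapamycin libraries, and replicate 3 was still above every vehicle library.

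JARID2 (ENSDARG00000062268), a cofactor of the Polycomb repressive complex PRC2, had 1562, 873 and 508 normalized counts in rapamycin larvae, against 276, 277 and 215 in vehicle larvae. CEPT1 (ENSDARG00000058716), a phosphotransferase of phosphatidylcholine and phosphatidylethanolamine synthesis, had 547, 256 and 388.5 in rapamycin larvae, against 129.6, 83.3 and 71.3 in vehicle larvae. Their groups did not overlap, and without pair 3 the log2 increases were 2.08 (SE 0.20, edgeR adjusted p = 0.006) for JARID2 and 1.88 (SE 0.26, edgeR adjusted p = 0.0431) for CEPT1. The remaining 6 higher genes were adpgk2, an ADP-dependent glucokinase gene, PRKCE, a protein kinase C, PTPRG, a receptor tyrosine phosphatase, atp8a1, a phospholipid flippase, ZBTB34, a zinc finger protein, and AGO2, the Argonaute protein of small RNA silencing. AGO2 had 943, 835 and 178 in rapamycin larvae, against 423, 293 and 331.5 in vehicle larvae. Replicates 1 and 2 were thus above all vehicle libraries, and replicate 3 was below all of them. Over the 11 higher genes, rapamycin replicate 3 was above all vehicle libraries in 7, between them in 1 and below them in 3.

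PCK1 (ENSDARG00000013522), the cytosolic phosphoenolpyruvate carboxykinase of gluconeogenesis and a gene that insulin signaling represses through Foxo1 in mammals, was the lower called gene that averaged 100 counts or more. It had 2672, 3239 and 6382 normalized counts in rapamycin larvae, against 5288, 7260.0 and 5755 in vehicle larvae. Replicates 1 and 2 were below every vehicle library, and replicate 3 was between vehicle replicates 3 and 2. Without pair 3 it fell by 1.08 on the log2 scale (SE 0.11, edgeR adjusted p = 0.00606), while with pair 3 the log2 difference was -0.65 (SE 0.21, edgeR adjusted p = 0.454). The other lower gene, zgc:153932 (ENSDARG00000074642), had 12, 20.8 and 65.6 in rapamycin larvae, against 46.6, 63.2 and 30.6 in vehicle larvae.

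The 11 higher genes also varied among libraries of apc mcr/mcr larvae. For b4galt5 (ENSDARG00000037815) these had 170.2, 56.5 and 654 normalized counts with rapamycin, against 102, 38.1 and 405 with vehicle. For DDX6 they had 357, 300.3 and 1330.5 with rapamycin, against 325, 258 and 626 with vehicle. In both genes mutant replicate 3 was the highest of its group with either treatment. The log2 rapamycin effect in mutants was positive for all 11 genes, at 0.11 to 0.71, with SEs of 0.35 to 0.70. None of the 11 passed edgeR there even at an unadjusted p under 0.05. The median over all genes in mutants was 0.00, so a positive sign is common. Genes measured in the same libraries are not independent, so the shared sign is no separate support. Whether library composition had a part in the level of these genes was not tested.

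**Figure D2:**
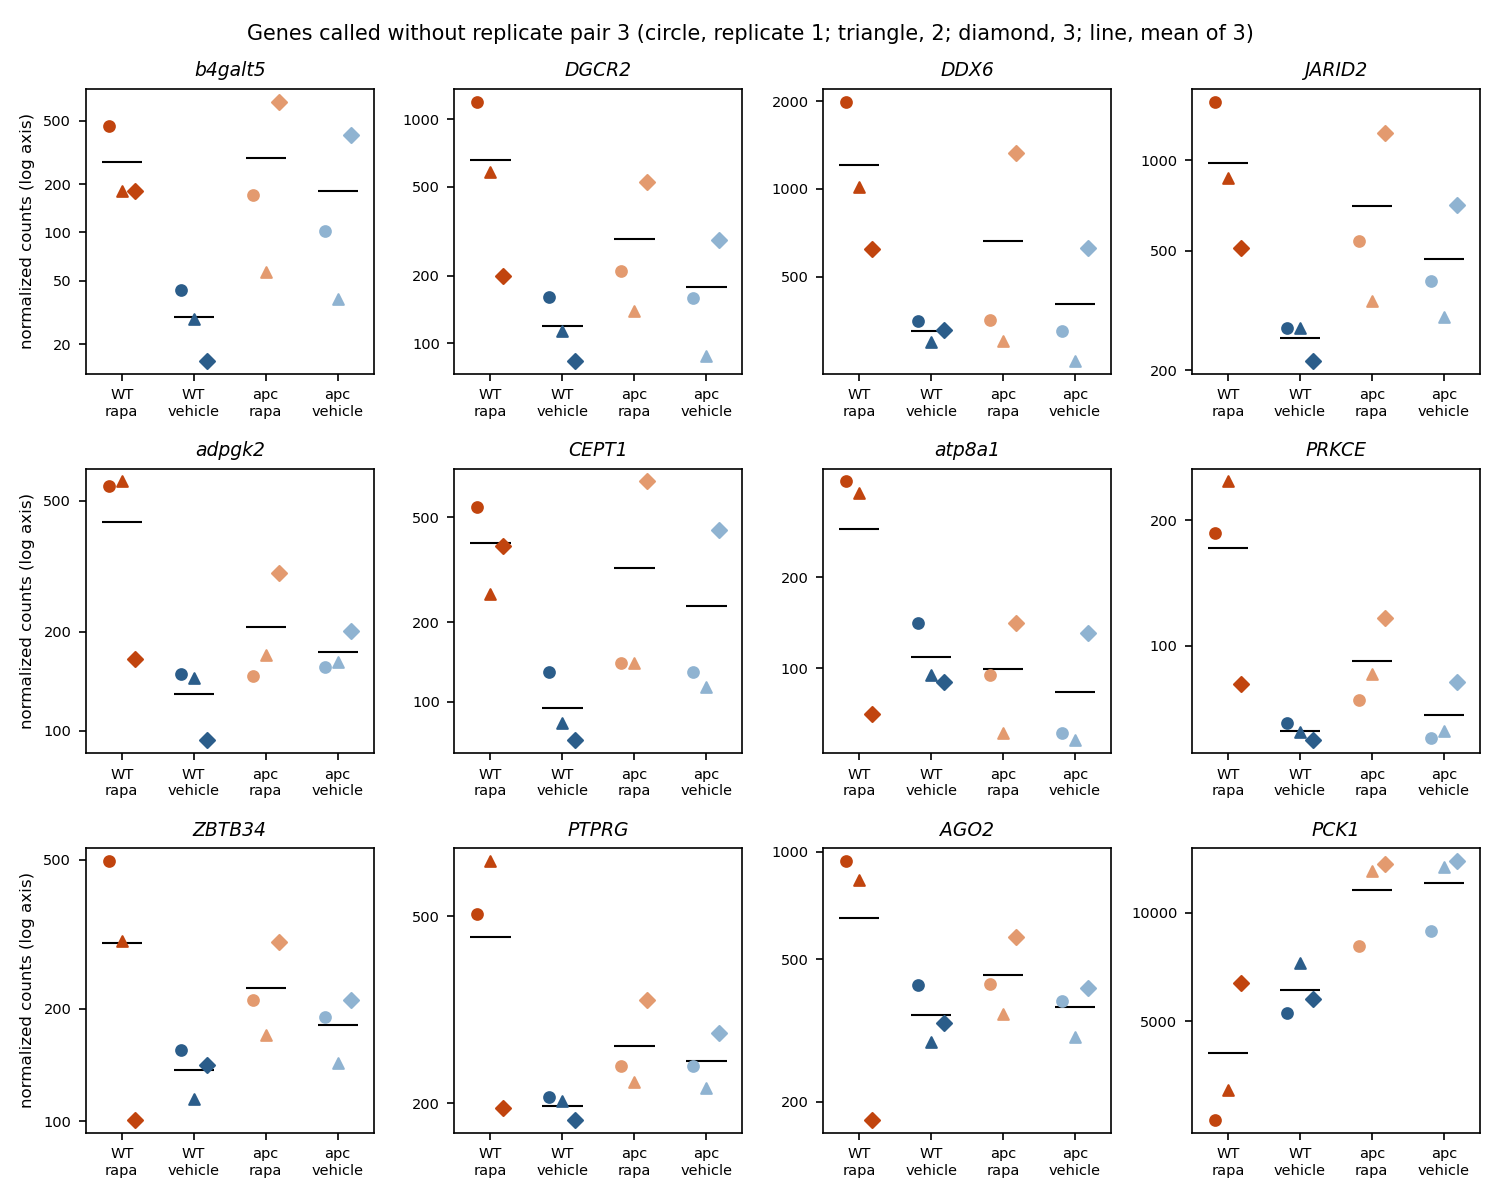
Normalized counts (log axis) of the 12 genes averaging 100 counts or more that were called without replicate pair 3, in WT rapamycin, WT vehicle, apc mcr/mcr rapamycin and apc mcr/mcr vehicle libraries; each symbol is a library (circle, triangle and diamond for replicates 1, 2 and 3) and the line is the mean of 3. Rapamycin replicates 1 and 2 lie above all WT vehicle libraries in 11 panels and below them for PCK1, while rapamycin replicate 3 lies among or beyond the vehicle libraries in several. The position of replicates 1 and 2 largely follows from picking these genes in the fit without pair 3.

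The mTOR pathway itself was examined first among the gene lists. Of 52 genes for components of mTORC1, mTORC2 and their regulators, 2 were above and 5 below with no overlap of groups (3.85% and 9.62%, against 5.45% and 5.24% of all genes), and the median log2 difference was -0.04 (-0.01 over all genes), and 0.01 without pair 3. MTOR, the kinase, had 2320.1, 2915 and 1905 normalized counts in rapamycin larvae, against 2691, 3009 and 2882 in vehicle larvae, and the groups overlapped. MIOS, a subunit of the GATOR2 complex that relays amino acid levels to mTORC1, had 993.5, 924 and 917 in rapamycin larvae, against 1162, 1314 and 1293 in vehicle larvae, without overlap (log2 difference -0.41, SE 0.10). NPRL2, a subunit of the opposing GATOR1 complex, had 1431, 1215 and 1482 in rapamycin larvae, against 1199, 1115 and 983.5 in vehicle larvae. EIF4EBP2, a translation repressor that mTORC1 phosphorylates, had 3359, 3089 and 2925 in rapamycin larvae, against 3646, 3796 and 3739 in vehicle larvae, also without overlap. The FKBP family, which includes the receptor of rapamycin, had 19 genes and a median log2 difference of 0.15, which was -0.03 without pair 3. The FKBP12 gene fkbp1aa had 34383, 30226 and 56811 in rapamycin larvae, against 37160.5, 34699.6 and 35201 in vehicle larvae. Replicate 3 alone was high, and replicates 1 and 2 were below all vehicle libraries, replicate 1 only slightly. No gene of either list was called by edgeR, with or without pair 3.

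Genes of the amino acid stress response, most of them targets of ATF4 in mammalian cells, had mostly lower values with rapamycin, though no member passed edgeR. Of 43 members 7 were lower in all 3 rapamycin libraries than in any vehicle library (16.3%, against 5.24% of all genes), and none was higher in all 3. ALDH1L2, given above as the gene with the smallest p, was among the 7. Limma voom with all libraries called 11 lower (25.6%, against 3.8% of all genes) and 1 higher. In that fit rapamycin replicate 1 had a weight of 2.84, against 0.581 and 0.0944 for rapamycin replicates 2 and 3, so its calls rest mostly on replicate 1. The median log2 difference was -0.14 with all libraries, -0.19 without pair 3, and -0.14, -0.22 and -0.02 in pairs 1, 2 and 3. ASNS, asparagine synthetase, had 1541, 1508 and 1335 normalized counts in rapamycin larvae, against 1944, 1849 and 1729.9 in vehicle larvae. SLC7A3 (ENSDARG00000020645), a cationic amino acid transporter, had 1411, 1322 and 1199.7 in rapamycin larvae, against 1678, 1892 and 1743 in vehicle larvae. SLC1A5, the neutral amino acid transporter that carries glutamine, had 1708, 1536 and 1240.0 in rapamycin larvae, against 1920.2, 1906 and 1931 in vehicle larvae. The groups did not overlap for any of the 3, and the log2 differences were -0.33 (SE 0.09), -0.43 (SE 0.11) and -0.36 (SE 0.12) in that order. The transcription factor gene atf5a, related to atf4, had 740.1, 729 and 749 in rapamycin larvae, against 1001, 856 and 901 in vehicle larvae.

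Several members of this list were low in replicates 1 and 2 but not in replicate 3. The proline synthesis gene pycr1b had 2256, 2719.6 and 3748 normalized counts in rapamycin larvae, against 3090.0, 3647 and 3593 in vehicle larvae. The serine synthesis gene phgdh had 8434, 8168 and 13252 in rapamycin larvae, against 10801, 12166 and 9421 in vehicle larvae, and its groups overlapped. CHAC1, a glutathione-degrading enzyme, had 7175, 6667 and 12217 in rapamycin larvae, against 10936, 8318 and 8304 in vehicle larvae. Replicate 3 was above all vehicle libraries for each of these 3 genes. Of the 43 members, 25 were lower in both pair 1 and pair 2 (58.1%, against 28.9% of all genes). Most pathway lists exceeded that share of all genes, so the excess is not particular to this list. It was 47.7% for immediate early and heat shock genes, 45.1% for ribosomal proteins and 44.2% for sterol and fatty acid synthesis. Only ribosome biogenesis (28.7%), p53 response (22.2%), autophagy (21.6%) and cell cycle genes (19.7%) were below it. DDIT4, which encodes the mTORC1 inhibitor REDD1, was the member that limma voom called higher, with 3329, 1648 and 3202 in rapamycin larvae, against 2084, 1537 and 1279.8 in vehicle larvae, and its groups overlapped.

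The cytoplasmic tRNA synthetases, which load tRNAs with amino acids, had lower values in pairs 1 and 2 and not in pair 3. Of 19 genes 14 were lower in both of those pairs (73.7%, against 28.9% of all genes) and none was higher in both, with medians of -0.05, -0.31 and 0.19 in pairs 1, 2 and 3. The median log2 difference was -0.07 with all libraries and -0.18 without pair 3. NARS1, asparaginyl-tRNA synthetase, had 4586, 5145 and 3086 normalized counts in rapamycin larvae, against 6050.5, 6547 and 5856 in vehicle larvae, with all rapamycin libraries the lower (log2 difference -0.54, SE 0.14). IARS1, isoleucyl-tRNA synthetase, had 1713, 2064 and 2760.1 in rapamycin larvae, against 2684, 3104 and 2753 in vehicle larvae, with replicates 1 and 2 the lowest. MARS1, methionyl-tRNA synthetase, had 1196, 1362 and 2156 in rapamycin larvae, against 1712, 2091 and 1964 in vehicle larvae. For IARS1 and MARS1 replicate 3 reached the vehicle range or passed it. Limma voom called 6 of the 19 lower (31.6%, against 3.8% of all genes) and none higher, and edgeR called none, with or without pair 3. The limma voom fit gave replicate 1 the most weight of the rapamycin libraries.

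**Figure D3:**
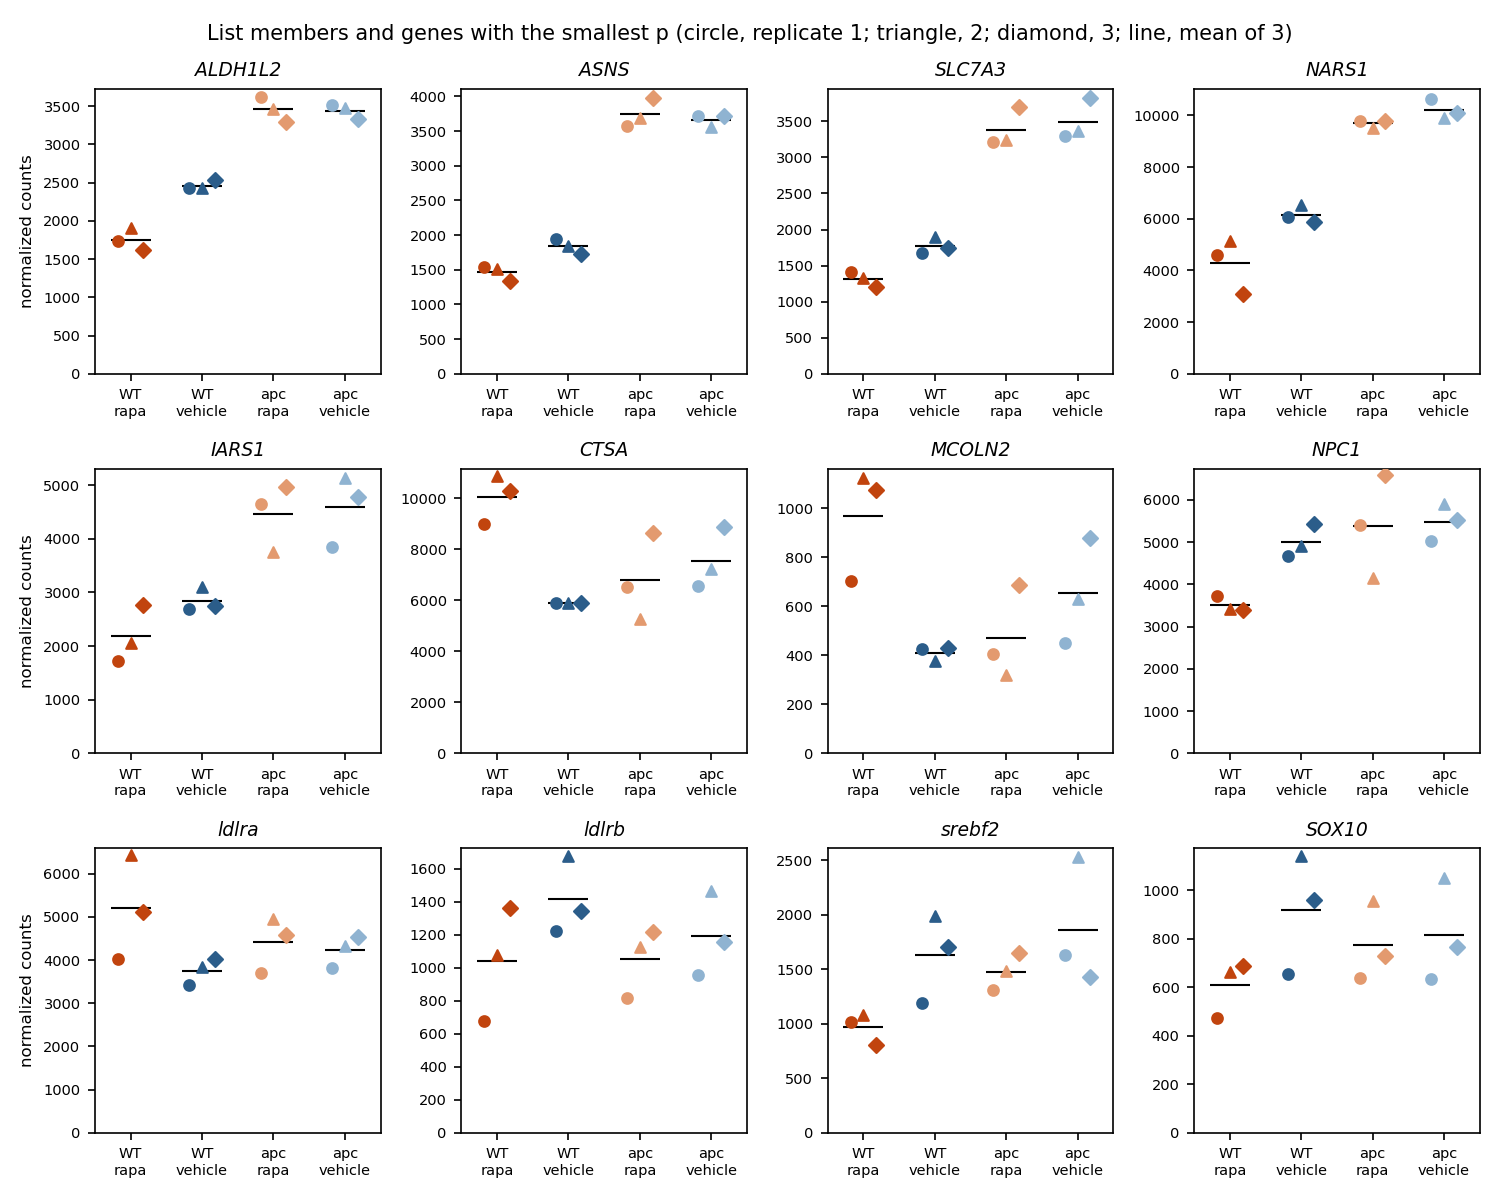
Normalized counts of 12 genes named in the text in WT rapamycin, WT vehicle, apc mcr/mcr rapamycin and apc mcr/mcr vehicle libraries; axes start at 0, each symbol is a library (circle, triangle and diamond for replicates 1, 2 and 3) and the line is the mean of 3. The WT groups do not overlap for ALDH1L2, ASNS, SLC7A3, NARS1, CTSA, MCOLN2, NPC1, srebf2 and, narrowly, ldlra. The mutant groups overlap for all of these except NARS1. The genes were picked with their WT values seen, so separation in WT larvae partly follows from the choice.

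Genes of sterol and fatty acid synthesis and uptake were split. Of 43 members, 7 were lower and 3 higher without overlap of groups (16.3% and 6.98%, against 5.24% and 5.45% of all genes), and the median log2 difference was -0.08 with all libraries, -0.09 without pair 3, and -0.08, -0.09 and -0.04 in pairs 1, 2 and 3. The transcription factor gene srebf2, whose product drives sterol synthesis, had 1013, 1082 and 804 normalized counts in rapamycin larvae, against 1195, 1991 and 1705 in vehicle larvae, all of the rapamycin libraries being lower. FASN, fatty acid synthase, had 203.5, 313 and 259 in rapamycin larvae, against 349.6, 413.5 and 343 in vehicle larvae, without overlap. GGPS1, geranylgeranyl diphosphate synthase, had 292, 356.5 and 291 in rapamycin larvae, against 401, 533 and 477 in vehicle larvae, again without overlap. The 2 copies of the low-density lipoprotein receptor gene differed in opposite directions. The copy ldlra had 4023, 6445 and 5120.3 in rapamycin larvae, against 3413, 3839.7 and 4016 in vehicle larvae (log2 difference 0.45, SE 0.11). The copy ldlrb had 674, 1079 and 1364 in rapamycin larvae, against 1223, 1674 and 1344 in vehicle larvae (log2 difference -0.48, SE 0.16). In ldlra replicate 1 was close to the highest vehicle library, and in ldlrb replicate 3 was within the vehicle range. How reads shared by related gene copies were assigned is not given in the sources used here, so values of single copies are less certain.

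Lysosomal genes, which TFEB drives in mammalian cells, gave few differences. Of 70 members tested of 71, 1 was higher and 5 lower without overlap of groups (1.43% and 7.14%, against 5.45% and 5.24% of all genes). The median log2 difference was -0.01 with all libraries, -0.08 without pair 3, and -0.05, -0.12 and 0.18 in pairs 1, 2 and 3. The 1 higher member was CTSA, given above. NPC1, the late endosomal cholesterol exporter, had 3733, 3423 and 3401 normalized counts in rapamycin larvae, against 4677, 4918 and 5432 in vehicle larvae, with all rapamycin libraries the lower (log2 difference -0.50, SE 0.14). The accessory subunit gene of the proton pump, atp6ap1a, had 1679.9, 1591 and 1163 in rapamycin larvae, against 2053, 1759 and 1947 in vehicle larvae. Of 51 autophagy genes, 1 was higher and 5 lower without overlap (1.96% and 9.8%, against 5.45% and 5.24% of all genes), and the median log2 difference was -0.04 with all libraries and 0.00 without pair 3. ULK2, a kinase that starts autophagy and is a direct target of mTORC1, had 208, 249 and 211 in rapamycin larvae, against 294, 322 and 300.0 in vehicle larvae. The autophagy receptor gene nbr1b had 1469, 1655 and 1325 in rapamycin larvae, against 1817, 1759 and 1771 in vehicle larvae. Both were lower in each rapamycin library than in any vehicle library, with log2 differences of -0.46 (SE 0.17) for ULK2 and -0.27 (SE 0.10) for nbr1b.

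Genes of the insulin and Foxo response had the most negative median of the pathway lists, -0.18 over 51 genes tested of 52, and pair 3 alone was far from 0. The medians in pairs 1, 2 and 3 were -0.03, 0.00 and -0.65, and the median without pair 3 was -0.02. IGFBP3, an IGF-binding protein, had 317, 317 and 304 normalized counts in rapamycin larvae, against 467, 405 and 497 in vehicle larvae, without overlap (log2 difference -0.55, SE 0.13). The adaptor gene grb10b, whose mammalian product restrains insulin signaling and is stabilized by mTORC1, had 141.5, 253 and 64.3 in rapamycin larvae, against 75.5, 72.8 and 70.4 in vehicle larvae. Replicates 1 and 2 were high and replicate 3 was below the vehicle range. PCK1, given above, was the 1 member called without pair 3.

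Lists for the translation machinery and respiration were higher in pair 3 and near or below 0 in pairs 1 and 2. For 82 cytoplasmic ribosomal protein genes the median log2 differences were 0.00, -0.10 and 0.69 in pairs 1, 2 and 3, and 0.22 with all libraries. For 90 respiratory chain genes tested of 92 they were -0.06, -0.12 and 0.70, and 60 of the 90 were lower in both pair 1 and pair 2 (66.7%, against 28.9% of all genes). For 101 ribosome biogenesis genes they were 0.06, -0.15 and 0.51, and for 41 translation factors of mRNAs with a 5 prime TOP motif -0.01, -0.10 and 0.45. Without pair 3 the medians were -0.05 for ribosomal proteins, -0.10 for the respiratory chain, -0.03 for ribosome biogenesis and -0.08 for the translation factors. The summed level of the ribosomal proteins was 7200330 to 11628700 in rapamycin libraries, against 7282260 to 8124800 in vehicle libraries. The ribosomal protein gene rps27.1 had 69829.5, 58533.5 and 93621 in rapamycin larvae, against 62396, 55896 and 56365 in vehicle larvae, with replicate 3 far the highest. Of the 90 respiratory genes 4 were higher without overlap of groups (4.44%, against 5.45% of all genes). Among them was atp5mea, a subunit of ATP synthase, with 1771.5, 1544 and 2060.0 in rapamycin larvae, against 1247, 1107 and 1416 in vehicle larvae (log2 difference 0.51, SE 0.12). What made replicate 3 differ was not tested.

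**Figure D4:**
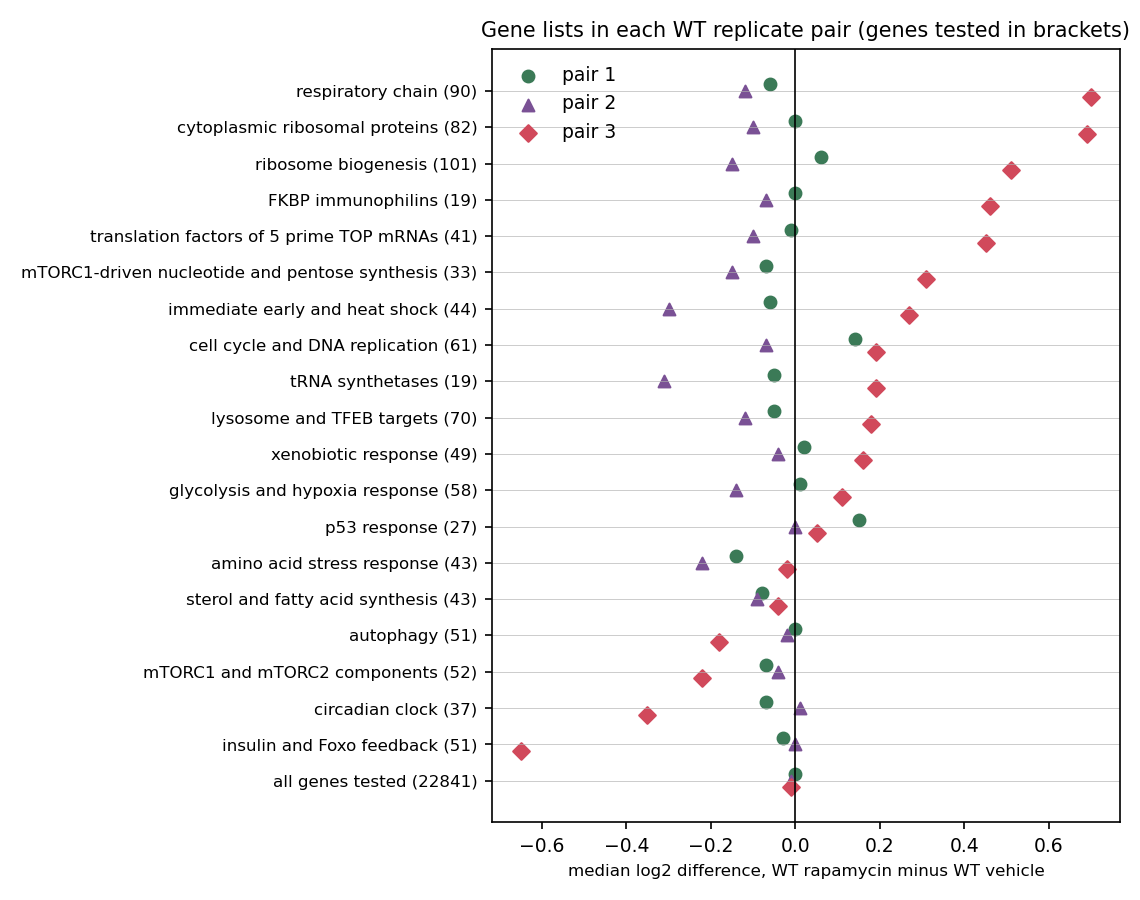
Median log2 difference of WT rapamycin minus WT vehicle (horizontal axis) for each gene list (number of genes tested in brackets) and for all genes, separately in replicate pairs 1 (circles), 2 (triangles) and 3 (diamonds). Pair 3 runs from -0.65 for insulin and Foxo genes to 0.70 for the respiratory chain, whereas pairs 1 and 2 lie between -0.31 and 0.15 and all genes are near 0.

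Of 61 cell cycle and DNA replication genes, 10 were higher without overlap (16.4%, against 5.45% of all genes) and 2 lower (3.28%, against 5.24%). Limma voom with all libraries, where replicate 1 had the most weight of the rapamycin libraries, called 8 higher (13.1%, against 2.93% of all genes) and 2 lower. EdgeR called none, with or without pair 3. The median log2 difference was 0.09 with all libraries, 0.06 without pair 3, and 0.14, -0.07 and 0.19 in pairs 1, 2 and 3. GINS2, a subunit of the replicative helicase, had 817, 811 and 1116 normalized counts in rapamycin larvae, against 646, 695 and 716 in vehicle larvae. CDK2, the kinase of S phase entry, had 2590.2, 2449 and 3326 in rapamycin larvae, against 2188, 2319.5 and 2136 in vehicle larvae. BIRC5, survivin of the chromosomal passenger complex, had 2678, 2302 and 3851 in rapamycin larvae, against 2055, 2297 and 2206 in vehicle larvae. All rapamycin libraries were above all vehicle libraries for these 3 genes, with replicate 3 the highest, but BIRC5 separated only narrowly. The log2 differences in pair 2 were 0.22, 0.08 and 0.00 for GINS2, CDK2 and BIRC5. Without pair 3 they were 0.28, 0.16 and 0.20 in that order. The mitotic checkpoint kinase gene bub1 was lower, with 1758, 1655 and 1588 in rapamycin larvae, against 2113, 2434 and 2306 in vehicle larvae. Among 33 genes of nucleotide and pentose synthesis 3 were higher and 3 lower without overlap (9.09% each, against 5.45% and 5.24% of all genes). The transketolase gene tkta had 151, 230.2 and 135 in rapamycin larvae, against 205, 319.7 and 348 in vehicle larvae. Its groups overlapped, so it was not among the 3 lower genes. Among 58 glycolytic and hypoxia genes 1 was higher and 6 lower without overlap (1.72% and 10.3%, against 5.45% and 5.24% of all genes), and PFKL (ENSDARG00000099755), phosphofructokinase, had 1693, 1284 and 1294 in rapamycin larvae, against 1825, 2150.1 and 2041 in vehicle larvae.

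For the lists that follow, 5.45% of all genes were higher and 5.24% lower without overlap. Of 44 immediate early and heat shock genes none was higher and 2 lower (4.55%), with medians of -0.06, -0.30 and 0.27 in pairs 1, 2 and 3. The immediate early transcription factor gene egr1 had 488, 454 and 404 normalized counts in rapamycin larvae, against 585, 616.5 and 707 in vehicle larvae. Of 49 xenobiotic response genes tested of 50, 3 were higher (6.12%) and 1 lower (2.04%), and the lower one was abcb5, a drug efflux transporter gene, with 3083, 3995.5 and 3369 in rapamycin larvae, against 4717, 4775 and 5347 in vehicle larvae (log2 difference -0.51, SE 0.11). Of 37 circadian clock genes none was higher and 5 lower (13.5%), with medians of -0.07, 0.01 and -0.35. Of 27 p53 response genes 4 were higher (14.8%) and 2 lower (7.41%), with medians of 0.15, 0.00 and 0.05. No member of these lists was called by edgeR, with or without pair 3.

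Since whole embryos were sequenced, fewer cells of a type and less RNA per cell cannot be told apart, and markers of cell types were read beside the pathways. Markers of skeletal muscle were present in all libraries, with a summed level of 8619440 to 11847000 in rapamycin libraries, against 9065680 to 9965170 in vehicle libraries. The median log2 differences of the marker lists in pair 3 were 0.62 for lens, 0.48 for liver and yolk syncytial layer, 0.40 for skeletal muscle, -0.35 for cartilage and -0.34 for endothelium. In the same order they were -0.23, 0.00, 0.04, -0.13 and 0.04 in pair 1, and -0.15, -0.08, -0.02, -0.10 and -0.10 in pair 2. Lens had 36 of 55 markers lower in both pair 1 and pair 2 (65.5%, against 28.9% of all genes). Of 32 neuron and glia markers none was higher and 3 lower without overlap (9.38%, against 5.24% of all genes), and the vesicular GABA transporter gene SLC32A1 had 747.5, 675 and 684 in rapamycin larvae, against 948, 796.5 and 868 in vehicle larvae. Of 24 neural crest and pigment cell markers none was higher and 1 lower without overlap (4.17%, against 5.24% of all genes). The median log2 difference of that list was -0.14 with all libraries and -0.05 without pair 3. In pairs 1, 2 and 3 it was 0.01, -0.14 and -0.21, so the list was near 0 in pair 1 and below 0 in pairs 2 and 3. SOX10, the transcription factor of neural crest, had 475, 663.5 and 689 in rapamycin larvae, against 653, 1141 and 958.5 in vehicle larvae. Each rapamycin library was below the vehicle library of its own replicate number, although the groups overlapped (log2 difference -0.57, SE 0.12). SOX9 (ENSDARG00000043923), a transcription factor of chondrocytes, had 576, 665 and 435 in rapamycin larvae, against 672, 1135 and 879.8 in vehicle larvae. It was the 1 cartilage marker of 24 that was lower without overlap (4.17%, against 5.24% of all genes). Another gene ID also carries the name SOX9, and its values are not given here. The cartilage collagen gene col2a1a had 3468, 8290.0 and 9552 in rapamycin larvae, against 5999, 12586 and 12206.5 in vehicle larvae, and it varied more between replicate numbers than between treatments. The muscle Z-disc gene myoz1b had 27560.5, 25183 and 31738 in rapamycin larvae, against 21281, 20918.5 and 22694 in vehicle larvae, without overlap. Of 34 skeletal muscle markers 2 were higher without overlap (5.88%, against 5.45% of all genes), and the median of that list without pair 3 was -0.02. EdgeR called none of these named markers, with or without pair 3. DESeq2 with all libraries called SOX10, SOX9 (ENSDARG00000043923) and myoz1b, with adjusted p of 0.0268, 0.0481 and 0.016, and limma voom called these 3 and SLC32A1, with adjusted p of 0.00855, 0.0454, 0.0107 and 0.0212 in that order. The part of the marker lists in the pathway values was not tested.

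The WT effect was set against the effect of the same exposure in apc mcr/mcr larvae by an interaction term in the model of all 12 libraries. No gene passed edgeR at an adjusted p under 0.05 (0.0% of 22841), the smallest adjusted p was 0.981, and 662 genes (2.9%) passed an unadjusted p under 0.05. DESeq2 called 4 genes and limma voom 1, si:dkey-26m3.2, which was also among the 4. In mutants alone no gene was called by edgeR and 249 (1.09%) passed an unadjusted p under 0.05. The other genes called by DESeq2 were MCOLN2, the unnamed ENSDARG00000086880 and ptprt (ENSDARG00000097572), a receptor tyrosine phosphatase. For MCOLN2, mutant larvae had 404, 320.1 and 686 normalized counts with rapamycin, against 451, 629 and 878.5 with vehicle. The log2 rapamycin effect was 1.21 in WT larvae and -0.48 (SE 0.23) in mutants, and the difference of 1.70 had a DESeq2 adjusted p of 0.00547 and an edgeR adjusted p of 0.981. For CTSA mutant larvae had 6528, 5286 and 8624 with rapamycin, against 6565, 7232 and 8868 with vehicle, so the log2 effect was 0.77 in WT larvae and -0.16 (SE 0.14) in mutants. For ASNS mutant larvae had 3572, 3689 and 3975 with rapamycin, against 3717, 3563 and 3722 with vehicle, and the log2 effects were -0.33 in WT larvae and 0.03 (SE 0.09) in mutants. CTSA and MCOLN2 were picked by small p in WT larvae, and ASNS after its values were seen. A smaller effect in mutants thus partly follows from the choice and is no support. The median log2 effect of the amino acid stress list was -0.14 in WT larvae and 0.01 in mutants. In the same order it was -0.07 and 0.01 for tRNA synthetases, and -0.08 and 0.03 for sterol and fatty acid synthesis. It was -0.18 and -0.01 for insulin and Foxo genes, and 0.22 and 0.08 for ribosomal proteins. For the respiratory chain it was 0.19 and 0.05, and for nucleotide and pentose synthesis 0.06 in both. No list was tested between genotypes. With 3 against 3 libraries of 1 genotype, 0.1 is the smallest two-sided p for 1 gene when labels are permuted freely, ignoring replicate number. Swaps within pairs allow fewer arrangements. The difference of each gene between genotypes did not pass edgeR.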

How the data were processed

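RNA-seq counts per gene were analysed for 12 libraries of zebrafish larvae, 3 per group. The authors made stranded, poly-A-selected libraries. Their methods name STAR and GRCz10, and the submitters' processing notes name Salmon and GRCz10. The label of the deposited counts also names Salmon. Its settings are not given, so how reads were assigned to genes is not fully known. The deposited values are whole-number counts per Ensembl gene, not normalized, for 25902 genes, of which 486 had no counts. Libraries held 51692772 to 79553529 counts for WT rapamycin, 74395349 to 77680617 for WT vehicle, 73243315 to 82364863 for mutant rapamycin and 69693340 to 77584080 for mutant vehicle. Precision is given by replicates and by the SE that the edgeR test implies, which uses a spread shared by WT and mutant libraries.

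Counts were fitted in R 4.3.3 with edgeR 4.0.16 (TMM factors, filterByExpr with a minimum of 10 counts, quasi-likelihood test, Benjamini-Hochberg adjustment, calls at an adjusted p under 0.05) as 4 groups with replicate number as a block. The paper names no test for these groups. What libraries with the same number shared, a clutch or a batch of handling, is not given in the sample titles or the paper. Deviations from group means correlated by at least 0.139 in all 18 pairs of libraries with the same number (mean 0.282). The mean in 36 others was -0.14, and a negative value there largely follows from the first, since deviations within a group add up to 0. Genes are not independent in such correlations. The fit was repeated without replicate pair 3, and the interaction of rapamycin and genotype was tested. Alternatives were DESeq2 1.42.0, limma 3.58.1 with voom sample quality weights, other size factors and filters, robust fitting, no block, WT libraries alone, and each WT library or WT pair left out. Pair differences of lists used log2 CPM with a prior count of 2. On simulated data with the means and sizes of these libraries, the WT comparison recovered 82% of 2-fold and 99% of 4-fold changes, with 11 false calls among 22657 genes. The simulation held no library that stood apart and no effect shared by libraries of the same replicate number. Its changed genes were not drawn from the least expressed genes. Recovery in the real libraries can therefore be lower.

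The comparison and the gene lists were chosen with earlier results of these data known. The lists of ribosomal proteins, respiratory chain and tRNA synthetases were trimmed after their values were seen, to leave out kinases and assembly factors that shared a name pattern and a mitochondrial synthetase, and a few true subunits such as ndufab1b went with them. As first written these lists held 95, 99 and 20 genes tested, with median log2 differences of 0.21, 0.19 and -0.04 with all libraries and -0.04, -0.10 and -0.18 without pair 3. Which list members are given as examples, and the count of genes lower in both pair 1 and pair 2, were also chosen after values were seen. Most pathway lists were above the share of all genes by that count. Named genes are members of the lists, the 10 genes with the smallest p in each direction among those averaging 100 counts or more per WT library, genes called without pair 3 with the same minimum, and genes farthest outside the other WT libraries in rapamycin replicate 3. Outside this rule, zgc:158463, hist1h2a7, zgc:153932, the interaction genes of DESeq2 and the genes in the closing observations were named after their values were seen. Names came from the reference gene name table for 20992 genes and from the study's gene tables for 1743 and 205, and 2962 had none. Some are human symbols. Other gene IDs also carry the names SLC7A3, PFKL and ptprt, and their values are not given.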

Additional observations from a re-analysis of the deposited data

How the results depend on the processing

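The 0 genes called by edgeR in WT larvae became 100 with DESeq2 and 1538 with limma voom, stayed 0 under other size factors, filters, robust fitting, no replicate block and WT libraries alone, and ran over 0 to 27 when a WT library or pair was left out. The 27 came without rapamycin replicate 3, and 13 without pair 3. Without rapamycin replicates 2 and 3, an alternative chosen after seeing the data, 6 genes were called in WT larvae and 2 in the interaction. The 13 genes called without pair 3 became 0 with no replicate block, 360 with DESeq2, and 11 to 16 under the other alternatives. The 11 of the fit with 4 WT libraries alone shared 6 genes with the 13. The 0 interaction calls became 4 with DESeq2 and 1 with limma voom, and stayed 0 when any single WT library or pair was left out. Mutant libraries were not left out singly. Of 91 named genes followed under up to 20 alternatives, 87 kept the sign of their log2 difference throughout. The exceptions, when 1 library or pair was left out, were CHAC1 (-0.48 to 0.15), phgdh (-0.48 to 0.11), fkbp1aa (-0.16 to 0.37) and fkbp1ab (-0.07 to 0.19), and fkbp1aa was -0.08 with limma voom and -0.04 without rapamycin replicates 2 and 3. CTSA kept a log2 difference of 0.66 to 0.86, with an adjusted p over 0.00329 to 0.986. Medians of the ribosomal protein list ran over -0.05 to 0.39 and of the respiratory chain list over -0.10 to 0.38 when libraries were left out, against -0.19 to -0.07 for the amino acid stress list. The shallowest WT library held 51692772 counts. The cause of each change between tools was not tested.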

Other observations

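Leaving out rapamycin replicate 3 alone, while keeping vehicle replicate 3, gave 27 genes at an edgeR adjusted p under 0.05, of which 11 were among the 13 called without the whole pair. Genes of the other 16 included ifi27.5, of a family induced by interferon in mammals, with 4466, 7618 and 4261 normalized counts in rapamycin larvae, against 3089, 3459.6 and 3420.0 in vehicle larvae (log2 difference without replicate 3 0.88, edgeR adjusted p = 0.0196). All 3 rapamycin libraries, the omitted one included, were above the vehicle libraries. The gene mpl, the thrombopoietin receptor gene, had 1316, 1973 and 1188 in rapamycin larvae, against 942, 1117 and 945 in vehicle larvae (0.70, edgeR adjusted p = 0.0494), again without overlap. LDLRAD2, which carries a low-density lipoprotein receptor domain, had 491, 982 and 1576 in rapamycin larvae, against 1245, 1569 and 1996 in vehicle larvae, and only replicate 3 reached the vehicle range. OSBPL8, an oxysterol-binding protein gene, had 169, 270.2 and 34.1 in rapamycin larvae, against 65.2, 78.5 and 66.7 in vehicle larvae. The osmotic stress transcription factor gene nfat5a had 197, 253 and 21.4 in rapamycin larvae, against 77.4, 60.3 and 51.9 in vehicle larvae. In OSBPL8 and nfat5a replicates 1 and 2 were above and replicate 3 below all vehicle libraries.

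The interaction gene with the largest DESeq2 estimate, si:dkey-26m3.2, had few counts in any library. It had 14.8, 25.6 and 11.4 normalized counts in WT larvae with rapamycin, against 0 in each of the 3 WT vehicle libraries, and 0.961, 0 and 0 in mutants with rapamycin, against 5.36, 3.72 and 22.6 in mutants with vehicle. The gene ptprt (ENSDARG00000097572) had 24.1, 16.0 and 10.1 in WT larvae with rapamycin, against 44.7, 60.3 and 81.5 with vehicle, and 33.6, 21.7 and 36.1 in mutants with rapamycin, against 11.8, 11.2 and 12.8 with vehicle. Neither passed edgeR.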
